A study of Mus musculus with 12 samples.

Results

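The genes described here are those of the count table whose symbols begin as sodium channel (Scn), potassium channel (Kcn) or calcium channel (Cacn) genes, with antisense, overlap-transcript and pseudogene entries left out. They number 134 of the 36255 genes in the table, and all are annotated in GENCODE M21. The symbols take in more than voltage-gated pores. They also cover the 15 inward rectifiers (Kcnj), the 14 tandem-pore leak channels (Kcnk), calcium- and sodium-activated potassium channels, and auxiliary subunits such as Cacnb, Cacng, Kcne and Scn beta, so "channel genes" is used below for the whole set.

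Poly(A) RNA of mouse embryos was sequenced, and 11 libraries were analysed of the 12 labelled. The groups at 9.5 days post coitum (dpc) were Skp1aKO (n = 2), Skp1acont (n = 2), Skp1acont PI (n = 1), wt PI (n = 2) and wt (n = 2), and a younger wt group was taken at 9.0 dpc (n = 2). The labels do not spell out "cont" or "PI", and give no strain, allele or driver. Each title also carries "mb", which is not spelled out either, so it is not known if whole embryos or a part of them were used. They name embryo as the source while the growth and series text speaks of embryonic stem cells and embryoid bodies, and nothing in them says if replicates came from different embryos. The p-values therefore reflect the spread among these libraries, which may be technical.

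Voltage-gated channels open when the membrane potential changes: sodium channels carry the upstroke of an action potential, potassium channels return the membrane to rest, and calcium channels couple activity to secretion, contraction and gene expression. The pore is formed by a large alpha subunit (Scn alpha, Cacna1, Kcna to Kcnd, Kcnh, Kcnq), and auxiliary subunits set where and how it works. In the embryo, neurons begin to express these genes as they differentiate, and heart and muscle use partly different members.

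Total counts were 3601338 and 3017451 in Skp1aKO, 4203553 and 2320599 in Skp1acont, 4128267 in Skp1acont PI, and 3392251 to 11607085 in the wt libraries, where replicate 2 of each group was the deeper. Levels are depth-scaled counts (CPM) adjusted by TMM, a factor that evens out library composition, over all 11 libraries. Levels of different genes are compared per kb of exon. A rate of reads outside true expression was estimated in each library as the median CPM per kb of 1474 chemoreceptor genes (olfactory, vomeronasal and taste receptors), none of which has a known role at this age. This chemoreceptor rate was 0.519 and 0.585 CPM per kb in Skp1aKO, 0.236 and 0.982 in Skp1acont, 0.252 in Skp1acont PI and 0.133 to 0.201 in the 6 wt libraries. Skp1acont replicate 2 therefore stood apart from the other 10 libraries, with the lowest total and the highest rate. The 8 heart muscle markers summed to 9.31 to 56.0 CPM in the wt libraries, highest in wt 9.0 dpc replicate 1, where Myl7 had 41.5 CPM. Neuron and neural progenitor markers were present in all of them.

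Channel genes were a small and low part of the wt transcriptome. They took 0.0189% and 0.0200% of the counts in wt PI, 0.0267% and 0.0256% in wt at 9.5 dpc, and 0.0140% and 0.0144% in wt at 9.0 dpc. Of the 134 genes, 69 had at least 1 read in all 6 wt libraries, 55 averaged over 1 CPM there and 12 averaged over 5 CPM. Kcnk12, a tandem-pore potassium channel gene, was the only one with no read in any wt library. The median channel gene lay near the chemoreceptor median: 0.647 and 0.535 times it in wt PI, 1.09 and 1.00 times in wt at 9.5 dpc, and 0.784 and 0.731 times in wt at 9.0 dpc.

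Auxiliary subunits led the levels per kb. Cacng4, a transmembrane regulator of AMPA receptors named for its likeness to a calcium channel subunit (ENSMUSG00000020723.3, GRCm38 chromosome 11, 107732357 to 107794557, minus strand), averaged 9.54 ± 5.94 CPM per kb over the wt libraries (SD, n = 6). Kcne3, a small subunit that keeps Kcnq1 channels open (ENSMUSG00000035165.14, chromosome 7, 100176502 to 100184869, plus strand), followed at 7.34 ± 0.942 CPM per kb. Next were Kcnk1, a tandem-pore leak channel, at 3.64 ± 1.53 CPM per kb and Cacnb3, a beta subunit that brings calcium channel pores to the membrane, at 3.10 ± 1.45 CPM per kb. These SDs span stage and PI, and the wt ranges of Kcnk1 and Cacnb3 overlapped each other.

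The first pore gene of the voltage-gated kind was Kcna5, a delayed-rectifier potassium channel, at 2.28 ± 1.04 CPM per kb. After it came Kcnmb4, the neuronal beta subunit of the large-conductance calcium-activated channel, at 1.62 ± 0.402 CPM per kb, with 31.5% of its exon bases shared with antisense transcripts that the counting may not have separated. Kcne1l, another small Kcne subunit, averaged 1.19 ± 0.636 CPM per kb. Kcng1, a silent modifier of Kcnb channels, averaged 0.954 ± 0.414 and Kcnt2, a sodium-activated potassium channel, 0.866 ± 0.0817 CPM per kb. These 9 genes, Cacng4, Kcne3, Kcnk1, Cacnb3, Kcna5, Kcnmb4, Kcne1l, Kcng1 and Kcnt2, were the ones above 3 times the chemoreceptor median in all 6 wt libraries. Single chemoreceptor genes reached higher, with a 90th percentile of 0.822 to 1.04 CPM per kb in the wt libraries. Kcna5, Kcne1l, Kcng1 and Kcnt2 lay under that percentile in at least 1 wt library.

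The other genes among the highest 20 were close together, from Cacna2d3, an alpha-2-delta subunit that raises calcium channel density, at 0.806 ± 0.286 CPM per kb to Cacnb4, another beta subunit, at 0.508 ± 0.124 CPM per kb. Neighbours in this stretch did not differ beyond their spread. It held Scn2b, a sodium channel beta subunit, the tandem-pore genes Kcnk5, Kcnk4 and Kcnk6, Kcnab1, a beta subunit of Kcna channels, Kcnh2, the rapid delayed rectifier of the heart, Scn8a, a sodium channel pore of the axon initial segment, Kcnn2, a small-conductance calcium-activated channel, and Kcna1. Scn8a was the highest sodium channel pore at 0.579 ± 0.114 CPM per kb, and Cacna1a, the P/Q-type pore, was the highest of the Cacna1 pores.

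**Figure D1:**
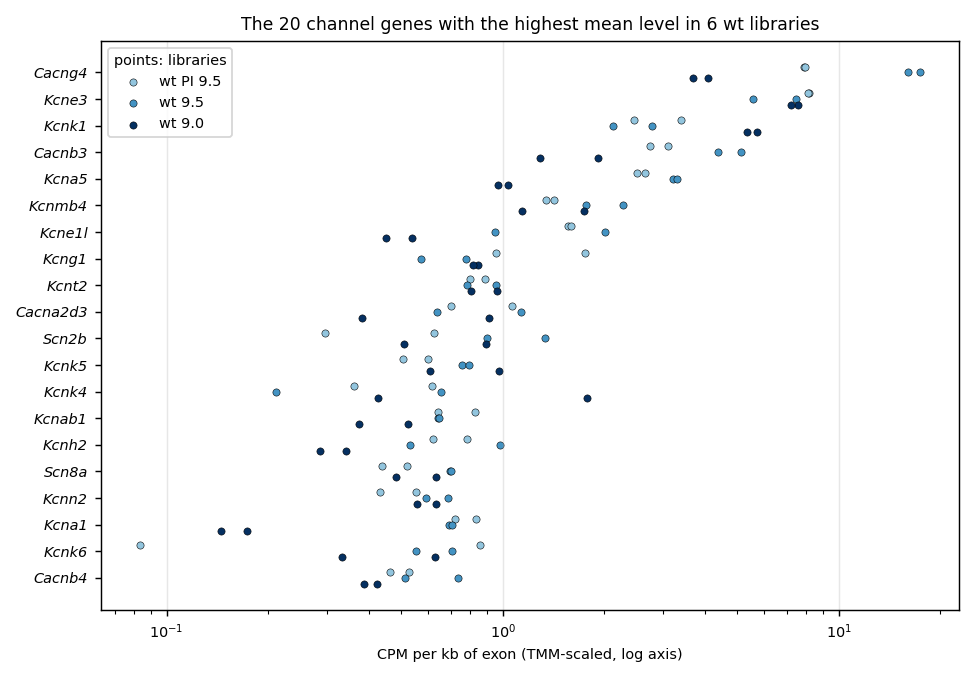
Level of the 20 channel genes with the highest wt mean, in CPM per kb of exon on a log axis, where each point is a library coloured by wt group. Cacng4 and Kcne3 lie highest, at means of 9.54 and 7.34 CPM per kb, and from Cacna2d3 downwards most points lie under 1 CPM per kb.

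The comparison of wt at 9.5 dpc with wt at 9.0 dpc asks how channel expression differs between these stages. Within the wt libraries 48 of the 134 channel genes had enough reads to test, and 13 of them were higher and 1 lower at 9.5 dpc (edgeR quasi-likelihood test of the 6 wt libraries, Benjamini-Hochberg adjusted p under 0.05). Over all 13126 genes tested 31.7% were called, 15% as higher and 16.7% as lower. The median log2 fold change was 0.65 for the tested channel genes and -0.02 for all genes. The genes that rose included calcium channel auxiliary subunits (Cacng4, Cacnb3, Cacna2d1), Kcna pores (Kcna1, Kcna5), sodium channel pores (Scn9a, Scn3a) and tandem-pore channels (Kcnk2, Kcnk10), with Kcnn1, Kcnd3, Kcne1l and Kcnip1. The gene that fell was Kcnk1. Scn9a and Kcnn1 had enough reads to test only through wt at 9.5 dpc, so the filter on low counts fixed their direction. Kcna1, Kcnk2, Kcnk10, Kcne1l and Kcnip1 did so only through 9.5 dpc libraries, wt or wt PI, so the filter favoured a rise. Without wt 9.0 dpc replicate 2 the count of calls was 8 of 40 tested, and without wt 9.5 dpc replicate 2 it was 9 of 34.

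Cacng4 had 57.6 and 62.6 CPM in wt at 9.5 dpc, against 13.1 and 14.6 CPM in wt at 9.0 dpc. Both libraries of the later stage lay far above both of the earlier one, a log2 fold change of 2.14 ± 0.13 (SE, edgeR adjusted p = 5.25e-06). It passed the test in all 11 alternatives run for it. With 2 libraries a group, values that do not overlap are frequent without any change. Non-overlap is therefore given as a description only, with no share over all genes, and adds no support to a call. Cacnb3 (ENSMUSG00000003352.14, chromosome 15, 98630840 to 98644529, plus strand) had 20.6 and 17.6 CPM at 9.5 dpc, against 5.19 and 7.70 CPM at 9.0 dpc, with no overlap (log2 fold change 1.5 ± 0.22, edgeR adjusted p = 0.000808). Cacna2d1, the alpha-2-delta subunit that gabapentin binds, had 9.18 and 8.52 CPM at 9.5 dpc, against 2.08 and 3.20 CPM at 9.0 dpc (1.67 ± 0.29, edgeR adjusted p = 0.00218). None of the 5 Cacna1 pores tested was called, and their median log2 fold change was 0.47.

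Among potassium channel pores, Kcna5 (ENSMUSG00000045534.4, chromosome 6, 126532551 to 126535412, minus strand) had 9.18 and 9.47 CPM at 9.5 dpc, against 2.77 and 2.96 CPM at 9.0 dpc. The groups did not overlap, and the log2 fold change was 1.71 ± 0.25 (edgeR adjusted p = 0.000896). Kcna1, a low-threshold axonal channel from the same gene cluster (ENSMUSG00000047976.4, chromosome 6, 126640397 to 126646384, minus strand), had 3.30 and 3.38 CPM at 9.5 dpc, against 0.692 and 0.830 CPM at 9.0 dpc (2.08 ± 0.44, edgeR adjusted p = 0.00592). Kcnd3, an A-type pore, had 8.81 and 6.36 CPM at 9.5 dpc, against 1.38 and 2.84 CPM at 9.0 dpc (1.67 ± 0.39, edgeR adjusted p = 0.00974). Kcnip1, a calcium-binding partner of Kcnd pores, had 1.84 and 2.84 CPM at 9.5 dpc, against 0.692 and 0.830 CPM at 9.0 dpc (1.65 ± 0.55, edgeR adjusted p = 0.0465). A Kcnd pore and its partner thus passed in the same direction. Kcnip1 was called in 5 of the 9 alternatives that tested it.

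Kcne1l, which modulates Kcnq1 channels, had 1.47 and 3.11 CPM at 9.5 dpc, against 0.692 and 0.830 CPM at 9.0 dpc (log2 fold change 1.67 ± 0.54, edgeR adjusted p = 0.0415), and its libraries at 9.5 dpc differed from each other by more than those at 9.0 dpc. Kcnn1, a small-conductance calcium-activated channel, rested on 30 reads at 9.5 dpc against 3 reads at 9.0 dpc, a ratio of 11.2 with an exact 95% interval of 3.48 to 57.3 that covers counting error only. Kcnk2, a mechanically gated leak channel, had 2.94 and 4.33 CPM at 9.5 dpc, against 1.04 and 1.19 CPM at 9.0 dpc (1.74 ± 0.43, edgeR adjusted p = 0.0126), and 12.2% of its exon bases are shared with other genes. Its close relative Kcnk10 had 2.20 and 3.11 CPM at 9.5 dpc, against 1.04 and 1.07 CPM at 9.0 dpc (1.40 ± 0.46, edgeR adjusted p = 0.0436). Both of these leak channels had higher levels in each 9.5 dpc library than in either 9.0 dpc library.

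Sodium channel pores were low and only some passed. Scn9a, best known from sensory neurons (ENSMUSG00000075316.11, chromosome 2, 66480080 to 66634962, minus strand), had 7.71 and 7.03 CPM at 9.5 dpc, against 0.346 and 2.01 CPM at 9.0 dpc (log2 fold change 2.32 ± 0.49, edgeR adjusted p = 0.00613). Scn3a, the sodium channel of the embryonic brain, had 6.61 and 5.68 CPM at 9.5 dpc, against 1.73 and 2.61 CPM at 9.0 dpc (1.41 ± 0.34, edgeR adjusted p = 0.0108). For both genes each library of the later stage exceeded each of the earlier stage. For Scn9a this direction was fixed by the filter, which it passed only through wt at 9.5 dpc. Scn8a, at 11.0 and 11.1 CPM against 7.61 and 9.96 CPM, did not pass (0.32 ± 0.22, edgeR adjusted p = 0.315). Scn1a, a channel of inhibitory neurons, differed by 1.00 ± 0.43 (edgeR adjusted p = 0.109) and Scn2a, a channel of excitatory neurons, by 0.85 ± 0.32 (edgeR adjusted p = 0.0708), and neither passed.

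Kcnk1 (ENSMUSG00000033998.9, chromosome 8, 125995170 to 126030685, plus strand) had 4.77 and 6.22 CPM at 9.5 dpc, against 12.8 and 12 CPM at 9.0 dpc. Both later libraries lay under both earlier ones, and the gene fell by 1.09 on the log2 scale (SE 0.25, edgeR adjusted p = 0.00807). An antisense transcript shares 8.01% of its exon bases. Kcne3, second in level, differed by -0.11 ± 0.18 (edgeR adjusted p = 0.872), and Kcnt2 by -0.05 ± 0.26 (edgeR adjusted p = 0.930). With the replicate number as a block, 14 channel genes were higher and 3 lower, with Scn2a added among those higher and Cacnb2 and Kcnk4 among those lower.

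**Figure D2:**
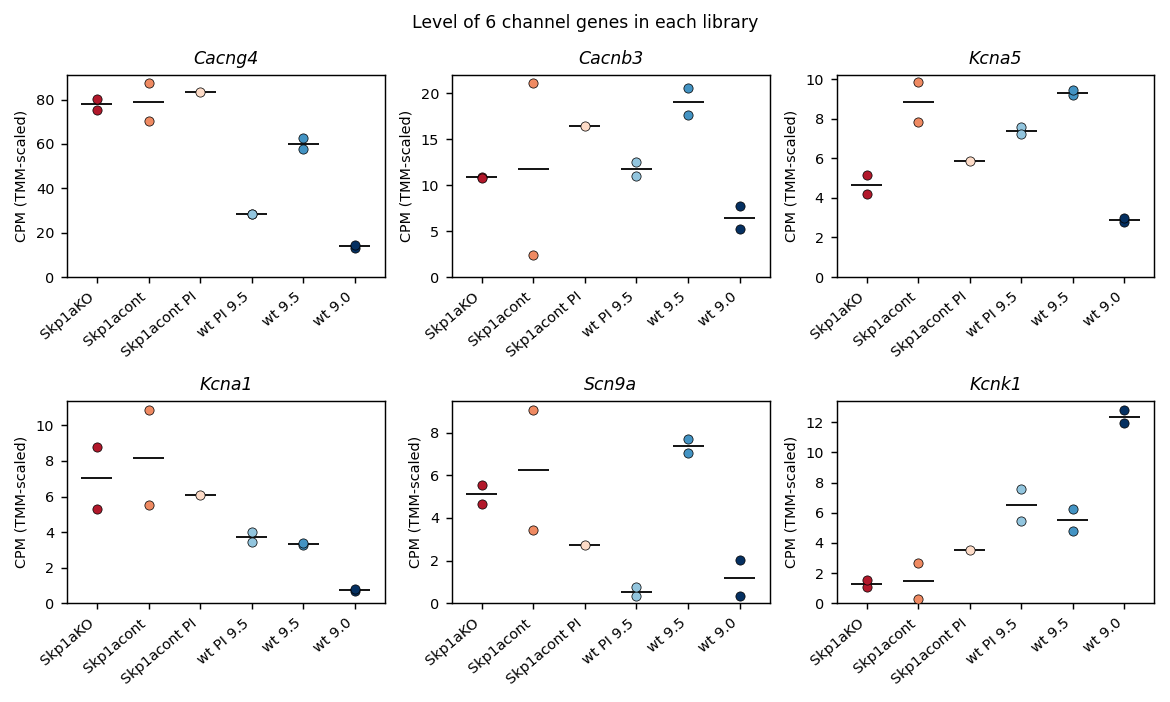
Level of 6 channel genes in each library, in TMM-scaled CPM on axes that start at 0, where points are libraries and horizontal lines are group means. In wt at 9.5 dpc Cacng4, Cacnb3, Kcna5, Kcna1 and Scn9a lie above wt at 9.0 dpc and Kcnk1 lies below it, and the Skp1acont points are far apart for Cacnb3.

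Several marker lists moved with the stage. Of 12 neuron markers 11 were higher at 9.5 dpc, and their summed level was 1012 and 1069 CPM in wt at 9.5 dpc, against 172 and 190 CPM in wt at 9.0 dpc. None of the 12 was at 0 in any library, and the lowest of them in wt at 9.5 dpc was Rbfox3 at 0.734 CPM. Of 8 neural progenitor markers 7 were higher, at 2978 and 2546 CPM summed in wt at 9.5 dpc, against 598 and 580 CPM in wt at 9.0 dpc. In bulk RNA more cells of a type and more RNA per cell cannot be told apart, and the part of these lists in the channel result was not tested. Markers of other tissues moved as well. Surface epithelium markers were lower at 9.5 dpc for 4 of the 4 tested (Krt18, Krt8, Epcam and Cdh1), and the 5 listed summed to 25.7 and 36.2 CPM in wt at 9.5 dpc, against 220 and 226 CPM in wt at 9.0 dpc, with Krt5 at 0 in both libraries of the later stage. The channel gene Kcnk1 fell in the same comparison. Of the 4 macrophage and platelet markers 3 were higher, summing to 101 and 115 CPM in wt at 9.5 dpc, against 3.11 and 4.98 CPM in wt at 9.0 dpc, of which Pf4 gave 78.2 and 97.0 CPM at the later stage. Of 3 cardiac muscle markers tested 1, Actc1, was lower (-3.18 ± 0.41, edgeR adjusted p = 0.000465). The trophoblast list had 1 of 2 tested genes lower, Tfap2c (-1.34 ± 0.27, edgeR adjusted p = 0.00459), while Prl8a2, at 177 and 31.9 CPM in wt at 9.5 dpc against 2.08 and 2.37 CPM in wt at 9.0 dpc, did not pass (edgeR adjusted p = 0.0706). Red blood cell markers were higher for 3 of 6, and mesenchyme markers higher for 3 and lower for 2 of 5. The part of these cells in the channel values was not tested.

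A list of 43 other channels and channel partners, chosen by function, had 23 genes tested, of which 8 were higher and 1 lower at 9.5 dpc, with a median log2 fold change of 0.46. Nalcn, the sodium leak channel that sets resting excitability, had 8.44 and 8.25 CPM at 9.5 dpc, against 2.42 and 2.61 CPM at 9.0 dpc (1.73 ± 0.29, edgeR adjusted p = 0.00165). The adhesion and anchoring genes Cntn1, Cntn2, Cntnap2 and Ank3, which hold channels at the axon, were higher, as were Fgf13, an intracellular sodium channel partner, Rem2, a small GTPase that holds back calcium channels, and Rcor1. The gene that fell was Rest, the repressor of neuronal genes among them many channels: it had 57.3 and 58.6 CPM at 9.5 dpc, against 93.1 and 90.9 CPM at 9.0 dpc (-0.64 ± 0.10, edgeR adjusted p = 0.00107). Both libraries of the later stage had less Rest than either earlier one, while its corepressor Rcor1 rose by 0.46 ± 0.12 on the log2 scale (edgeR adjusted p = 0.0151).

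Promoters are shown for some genes called between wt at 9.5 dpc and wt at 9.0 dpc: Cacnb3, Kcna5 and Scn9a were higher and Kcnk1 lower at 9.5 dpc. For Scn9a the filter on low counts fixed this direction. Its level in wt PI at 9.5 dpc was 0.345 and 0.753 CPM, against 0.346 and 2.01 CPM in wt at 9.0 dpc. Each is the 250 bases before a RefSeq transcript start on GRCm38.p6, read along the gene's strand, and the start used for Cacnb3 lies 1488 bases from the gene start in GENCODE. Capitals mark any match, on either strand, to CAGCTG or CAGATG (E-box forms used by muscle and neural bHLH factors), CAGCACC (letters from the Rest site) or TATAAA (the TATA box). The coordinates are chr15:98632078-98632327 on the plus strand for Cacnb3, chr6:126535556-126535805 on the minus strand for Kcna5, chr2:66634963-66635212 on the minus strand for Scn9a and chr8:125994852-125995101 on the plus strand for Kcnk1.
Cacnb3: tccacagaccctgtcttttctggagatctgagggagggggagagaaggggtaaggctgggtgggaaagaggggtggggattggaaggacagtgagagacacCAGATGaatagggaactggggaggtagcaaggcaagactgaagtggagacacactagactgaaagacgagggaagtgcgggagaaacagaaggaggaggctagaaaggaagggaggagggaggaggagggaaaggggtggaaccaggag
Kcna5: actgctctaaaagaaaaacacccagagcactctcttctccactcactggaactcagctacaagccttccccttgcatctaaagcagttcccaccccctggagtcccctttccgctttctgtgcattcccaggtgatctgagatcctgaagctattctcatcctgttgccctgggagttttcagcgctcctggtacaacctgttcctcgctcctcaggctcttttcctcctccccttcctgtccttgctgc
Scn9a: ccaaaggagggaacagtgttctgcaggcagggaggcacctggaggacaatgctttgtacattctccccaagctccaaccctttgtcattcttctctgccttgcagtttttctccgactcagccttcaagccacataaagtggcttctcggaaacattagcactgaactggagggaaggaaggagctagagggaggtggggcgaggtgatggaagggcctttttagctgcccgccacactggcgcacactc
Kcnk1: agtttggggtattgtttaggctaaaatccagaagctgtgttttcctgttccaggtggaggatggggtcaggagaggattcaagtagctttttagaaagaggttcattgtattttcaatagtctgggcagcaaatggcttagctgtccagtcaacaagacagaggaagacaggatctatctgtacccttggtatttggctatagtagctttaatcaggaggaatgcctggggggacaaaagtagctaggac

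Of the windows printed only that of Cacnb3 held a match, 1 CAGATG. A second Cacnb3 promoter (chr15:98634517-98634766, 23 CpG), not printed because it overlaps an exon, held no match. Over the channel genes 99 were found in the RefSeq table, with 135 promoters. CAGCTG occurred in 24.4% of these promoters and in 13.0% of all 32851 promoters of the same length. The other motifs were at 14.1% against 14.4% for CAGATG, 5.19% against 5.73% for CAGCACC and 3.70% against 12.4% for TATAAA. The median promoter held 8 CpG for channel genes and 6 for all genes. A match describes these letters only.

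The comparison of wt PI with wt, both at 9.5 dpc, gave no channel gene as higher and 5 of 48 as lower, while 28% of all genes were called, 15.6% as higher and 12.4% as lower. The channel genes' median log2 fold change was -0.39, against 0.01 for all genes. Scn9a had 0.345 and 0.753 CPM in wt PI, against 7.71 and 7.03 CPM in wt, so that both PI libraries lay far under both wt libraries (log2 fold change -3.47 ± 0.56, edgeR adjusted p = 0.00197). Because Scn9a had enough reads to test only through these wt libraries, its direction was fixed by the filter on low counts. Cacng4 had 28.3 and 28.4 CPM in wt PI, against 57.6 and 62.6 CPM in wt (-1.09 ± 0.12, edgeR adjusted p = 0.00033). Cacnb3 had 11.0 and 12.5 CPM in wt PI, against 20.6 and 17.6 CPM in wt (-0.67 ± 0.20, edgeR adjusted p = 0.0348). This comparison and the one between stages use the same wt 9.5 dpc libraries, so a value high in those libraries by chance would show as higher in one and lower in the other. Omitting either wt PI library left 2 calls, omitting wt replicate 1 also left 2, and omitting wt replicate 2 left 3.

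Calcium channel pores gave the other calls. Cacna1b, the N-type pore of presynaptic terminals, had 2.76 and 2.69 CPM in wt PI, against 5.87 and 5.68 CPM in wt (log2 fold change -1.08 ± 0.29, edgeR adjusted p = 0.0219). Cacna1c, the L-type pore of heart and brain, had 2.07 and 2.37 CPM in wt PI, against 5.51 and 4.33 CPM in wt (-1.08 ± 0.35, edgeR adjusted p = 0.0449). Neither gene's groups overlapped, and Cacna1c passed in 3 of 11 alternatives. Kcna5 (-0.35 ± 0.23, edgeR adjusted p = 0.292), Kcna1 (0.17 ± 0.35, edgeR adjusted p = 0.777) and Kcnk1 (0.15 ± 0.26, edgeR adjusted p = 0.932) were not called. The replicate block gave 7 lower and none higher, adding Cacna2d1 and Scn3a. Neuron markers were again among the lists that moved: 10 of 12 were lower, at 384 and 390 CPM summed in wt PI, against 1012 and 1069 CPM in wt. Neural progenitor markers were lower for 7 of 8, and macrophage and platelet markers for 3 of 4, whereas 2 of 4 surface epithelium markers tested were higher, and their part was not tested.

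Set against wt at 9.0 dpc, wt PI at 9.5 dpc had 5 channel genes higher and 1 lower of 48 tested, with 15.6% of all genes called, 8.6% as higher and 6.99% as lower. This comparison shares its libraries with the previous ones. Kcna1 had 3.45 and 3.98 CPM in wt PI, against 0.692 and 0.830 CPM at 9.0 dpc (log2 fold change 2.26 ± 0.43, edgeR adjusted p = 0.0078). It had enough reads to test only through 9.5 dpc libraries, so the filter on low counts favoured a rise. Kcna5 had 7.58 and 7.21 CPM in wt PI, against 2.77 and 2.96 CPM at 9.0 dpc (1.36 ± 0.25, edgeR adjusted p = 0.00729). Cacng4 differed by 1.04 ± 0.13 (edgeR adjusted p = 0.00103) and Cacnb3 by 0.83 ± 0.22 (edgeR adjusted p = 0.0311). Kcnq3, a pore of the M-current that steadies neurons, had 6.89 and 6.02 CPM in wt PI, against 3.46 and 3.20 CPM at 9.0 dpc (0.97 ± 0.28, edgeR adjusted p = 0.045). Kcnk1 was lower, at 7.58 and 5.48 CPM in wt PI against 12.8 and 12 CPM at 9.0 dpc (-0.95 ± 0.24, edgeR adjusted p = 0.0269). The replicate block raised the counts to 11 higher and 1 lower, and library totals in place of TMM to 10 higher and 1 lower. Of the 12 neuron markers 9 were higher, and of the surface epithelium markers 4 of the 4 tested were lower, summing to 54.1 and 42.3 CPM in wt PI, against 220 and 226 CPM in wt at 9.0 dpc. Their part was not tested. Without wt 9.0 dpc replicate 1 and 2 in turn 3 and 2 genes were called, and without wt PI replicate 1 and 2 in turn 3 and 1.

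**Figure D3:**
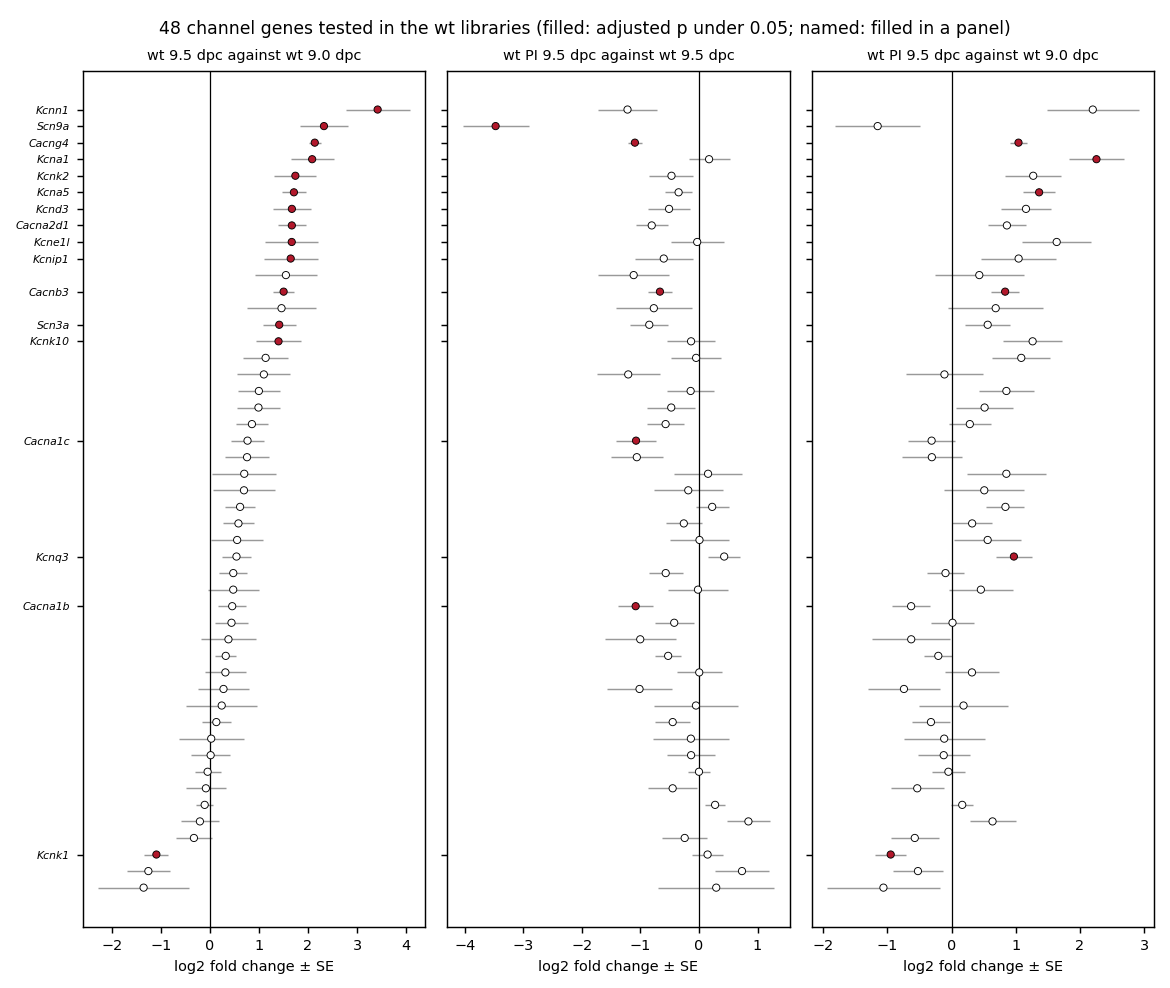
Log2 fold changes with their standard errors for the 48 channel genes tested in the wt libraries, in the same order in each panel, with names for genes filled in at least 1 panel and with genes at an edgeR adjusted p under 0.05 filled. In the left panel 13 filled points lie right of 0 and 1 left of it, in the middle panel all 5 lie left, and in the right panel 5 lie right and 1 left.

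The libraries with a Skp1a label were examined next. Skp1a, the adaptor of SCF ubiquitin ligases and the gene named in the labels, stood at 199 and 212 CPM under the label Skp1aKO, at 303 and 104 CPM under Skp1acont and at 273 CPM under Skp1acont PI, against 930 to 1337 CPM in the 6 wt libraries. Both Skp1aKO values fell inside the Skp1acont range, so this gene does not tell the labels apart (edgeR adjusted p = 1). A whole-gene count cannot reveal a deletion of 1 part of the gene, and Skp1aKO is kept as a label.

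Channel genes took a larger share of the counts in every Skp1a-labelled library: 0.0819% and 0.0907% in the libraries labelled Skp1aKO, 0.0576% and 0.134% in Skp1acont and 0.0592% in Skp1acont PI, against 0.0140% to 0.0267% in the 6 wt libraries. In CPM, 53 of the 134 genes (39.6%) exceeded every wt value in each of the 5 Skp1a-labelled libraries, against 13.4% of all genes in the table. Kcnk1 was the 1 channel gene lower in all 5. The chemoreceptor rate moved with this, and the median channel gene stayed near it: 0.884 and 0.804 times the chemoreceptor median in Skp1aKO, 1.19 and 0.816 times in Skp1acont and 1.19 times in Skp1acont PI. The count of a channel gene also followed its exon length more closely there. Across the 134 genes, which share a library and its depth, Spearman's rho of exon length and count was 0.740 and 0.717 in Skp1aKO, 0.599 and 0.761 in Skp1acont and 0.606 in Skp1acont PI, against 0.417 to 0.505 in the wt libraries.

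**Figure D4:**
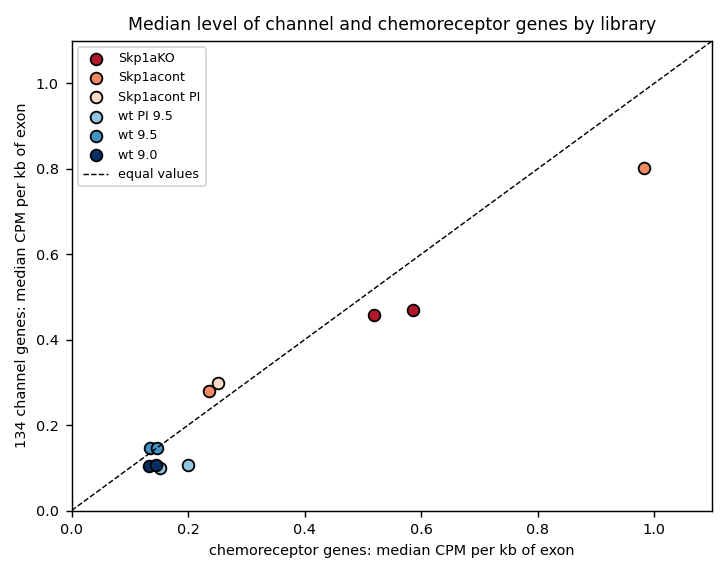
Median level of the 134 channel genes against that of the chemoreceptor genes in each library, both in CPM per kb of exon, with a dashed line of equal values. The wt libraries lie at 0.133 to 0.201 CPM per kb on the horizontal axis and Skp1acont replicate 2 at 0.982, and the points follow the line.

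Set against wt at 9.5 dpc, the libraries labelled Skp1aKO had 30 channel genes higher and 3 lower of 109 tested in a fit of all 11 libraries, where 36.4% of all genes were called, 17.6% as higher and 18.7% as lower. Of these 109 genes, 61 did not pass the filter on low counts in the wt libraries alone. Of these 61, 20 were called higher and none lower, beside 31.6% called higher of all such genes. In the fit of all 11 libraries 1 library with enough reads was sufficient, because Skp1acont PI has only 1. Some of the 61, such as Cacna2d2 and Kcnn4, reached this in a wt library. Others did so only in Skp1a-labelled libraries where they were high, so for them the filter favoured a rise. Of the 48 that also passed in the wt libraries, 10 were higher and 3 lower, that is 20.8% and 6.25%, beside 11.5% and 27% of all such genes, and their median log2 fold change was 0.72, beside -0.46. Without Skp1aKO replicate 1, without Skp1aKO replicate 2 and without wt replicate 2 no channel gene was called, without wt replicate 1 the count was 2, and without Skp1acont replicate 2, which this comparison does not use but which shares the estimate of spread, it was 64 higher and 6 lower of 91.

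Pores that also passed the filter in the wt libraries are given first. Cacna1a had 23.5 and 23.0 CPM in Skp1aKO, against 8.08 and 5.95 CPM in wt (log2 fold change 1.76 ± 0.39, edgeR adjusted p = 0.0118). Cacna1g, a T-type pore of rhythmic firing, had 15.2 and 14.8 CPM in Skp1aKO, against 5.51 and 2.43 CPM in wt (2.02 ± 0.49, edgeR adjusted p = 0.0156). Kcnq3 had 15.8 and 17.0 CPM in Skp1aKO, against 4.04 and 5.14 CPM in wt (1.80 ± 0.54, edgeR adjusted p = 0.0299). None of these overlapped between groups, which with 2 libraries a group adds no support to the calls. Kcna2 was also called higher, with a log2 fold change of 2.54. Cacna1d, Cacna1h and Kcnj2 had log2 fold changes of 2.52, 2.36 and 2.24, but could be tested only through the Skp1a-labelled libraries where they were high. Cacna1b, Cacna1c, Cacna1e, Scn1a, Scn2a, Scn3a, Scn8a, Kcnh2, Kcnq1, Kcnc1, Kcnd2 and Kcnk2 were not.

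The largest fold changes belonged to genes with almost no wt reads, all of them tested only through the Skp1a-labelled libraries, so that their direction was fixed by the filter. Kcnh3, a voltage-gated potassium channel of the forebrain, had 3.21 and 2.43 CPM in Skp1aKO and no read in wt at 9.5 dpc, which makes it at least 9.53-fold higher against a floor of 3 counts over the group. On the same floor Cacng7 was at least 4.77-fold and Kcnu1, a channel of sperm, at least 4.03-fold higher. All 3 rest on few reads. Cacna1s, the pore of skeletal muscle, rested on 27 reads in Skp1aKO against 1 in wt, a ratio of 29.7 (exact 95% interval 4.89 to 1216). Scn4a, the skeletal muscle sodium channel, rested on 35 reads against 2, a ratio of 19.2 (4.94 to 165). Scn10a, a sensory neuron channel, rested on 21 reads against 1, a ratio of 23.1 (3.71 to 955), and Kcnt1, a sodium-activated potassium channel, on 51 against 3, a ratio of 18.7 (6.05 to 93.6). Of the 4 skeletal muscle markers Ttn was tested, and was higher at 30.4 and 36.9 CPM in Skp1aKO, against 4.77 and 4.60 CPM in wt (log2 fold change 2.84 ± 0.59, edgeR adjusted p = 0.00946). The value of Ttn is from the counts as deposited, with no chemoreceptor rate taken off. Myf5 had 1.28 and 1.1 CPM in Skp1aKO, against 0.367 and 0.135 CPM in wt. Myog had 0 and 0.221 CPM and Myod1 0.214 and 0 CPM in Skp1aKO, and each was at 0 in both wt libraries. Cacna1f, the photoreceptor pore, rested on 32 reads in Skp1aKO against 3 in wt, a ratio of 11.7 (exact 95% interval 3.67 to 59.9), Cacna1i, a T-type pore, on 29 against 3, a ratio of 10.6 (3.30 to 54.5), and Kcna6 on 23 against 3, a ratio of 8.43 (2.55 to 43.9). Annotated antisense genes share 39.6% of the exon bases of Kcna6 and 20% of those of Cacna1s. The tandem-pore channel Kcnk9 and Cacna2d4 had log2 fold changes of 3.31 and 3.05.

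The genes that fell were Kcnk1, Kcne1l and Kcna5. Kcnk1 had 1.07 and 1.55 CPM in Skp1aKO, against 4.77 and 6.22 CPM in wt (log2 fold change -2.08 ± 0.63, edgeR adjusted p = 0.032). Kcne1l had 0.428 and 0.442 CPM in Skp1aKO, against 1.47 and 3.11 CPM in wt (-2.40 ± 0.71, edgeR adjusted p = 0.0287). Kcne1l had enough reads to test in this fit only through wt 9.5 dpc replicate 2, so the filter on low counts favoured a fall. Kcna5 had 5.14 and 4.20 CPM in Skp1aKO, against 9.18 and 9.47 CPM in wt (-0.996 ± 0.31, edgeR adjusted p = 0.0353). In each the groups did not overlap, and Kcna5 passed in 2 of 13 alternatives, Kcnk1 in 8 of 13 and Kcne1l in 4 of 10. With library totals in place of TMM the median over all genes moved to a log2 fold change of 1.04, against 0.24 with TMM, and 62 channel genes were higher and none lower. Of the 48 also tested in the wt libraries 27 were then higher, with a median of 1.54, beside 0.34 for all such genes.

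A correction for the chemoreceptor rate bears on these calls. With the rate of each library, times exon length, subtracted from the counts, 49 channel genes remained to test and 2 were higher and 3 lower in Skp1aKO. Cacna1a (log2 fold change 2.32 ± 0.56, edgeR adjusted p = 0.0237) and Cacng4 (1.02 ± 0.23, edgeR adjusted p = 0.0186) were the higher ones. The gene Cacng4 had 80.5 and 75.5 CPM in Skp1aKO, against 57.6 and 62.6 CPM in wt, and had not passed on the counts as deposited (0.37 ± 0.27, edgeR adjusted p = 0.267). Its level in Skp1aKO was 22.5 and 21.1 CPM per kb, beside a chemoreceptor rate of 0.519 and 0.585. The reads taken off it were thus too few to give the move from 0.37 to 1.02. For all genes also tested in the wt libraries, the median log2 fold change was -0.465 as deposited and -0.204 after subtraction. The part of library scaling in the move was not tested. Cacng4 was, with Kcnmb4, 1 of 2 channel genes above 3 times the chemoreceptor median in all 11 libraries. The 90th percentile of the chemoreceptor genes was 4.74 and 4.24 CPM per kb in Skp1aKO, and only Cacng4 exceeded it there. Cacna1a, at 2.06 and 2.01 CPM per kb, and Kcnmb4, at 2.06 and 2.72, lay under it. The lower ones were Kcnk1, Scn2a and Scn9a. Scn2a and Scn9a had no count left in Skp1aKO after subtraction. They could be tested only through wt libraries where they were high, so the filter fixed their direction. Scn2a reached 0.267 to 0.652 times the chemoreceptor median in the 5 Skp1a-labelled libraries, against 1.48 to 3.12 times in the wt libraries, so its level above that rate was 0 in the Skp1a-labelled libraries and no fold is given. Kcnt1 and Kcnh3, among the largest changes on the counts as deposited, lay at 1.04 to 1.63 and 0.721 to 1.54 times the chemoreceptor median in the Skp1a-labelled libraries. With Skp1acont replicate 2 left out as well, 13 were higher and 5 lower of 45.

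**Figure D5:**
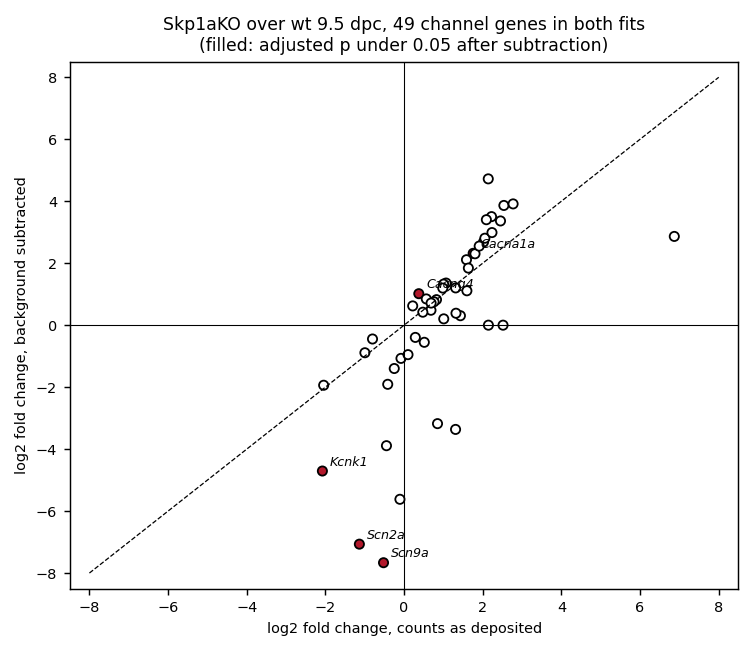
Log2 fold change of Skp1aKO over wt at 9.5 dpc for the 49 channel genes tested in both fits, on the counts as deposited (horizontal) and with the chemoreceptor rate subtracted (vertical), with genes at an edgeR adjusted p under 0.05 after subtraction filled. Cacna1a and Cacng4 are filled above 0 and Kcnk1, Scn2a and Scn9a below it, where values near the lower edge belong to genes left at or near 0 by the subtraction and have no exact size. Scn2a and Scn9a could be tested after subtraction only through wt libraries, so the filter fixed their direction.

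Neuron markers did not share the direction of the channel genes. Of 12 such markers 1 was higher and 7 lower in Skp1aKO, with a median log2 fold change of -1.37, and their sum was 507 and 276 CPM in Skp1aKO, against 1012 and 1069 CPM in wt. Of the 43 other channels and partners 33 were tested, and 8 were higher and 4 lower (median 0.78). The lower ones were Fgf13, Fgf12, Cntnap2 and Rcor1, of which Fgf13 had 6.21 and 3.97 CPM in Skp1aKO, against 26.1 and 27.9 CPM in wt (-2.40 ± 0.41, edgeR adjusted p = 0.00532). The higher ones included Cntnap1, Sptbn4, Lrrc55, Tpcn2, Dpp10, Dpp6 and Tpcn1. Of 6 cardiac muscle markers tested 3 were higher (Ryr2, Myh7 and Myh6) and 1, Myl7, was lower (-4.08 ± 1.17, edgeR adjusted p = 0.0266). The 8 listed summed to 34.5 and 35.6 CPM in Skp1aKO, against 11.7 and 9.60 CPM in wt, and Ryr2 and Myh7 gave most of the Skp1aKO sum, while Nppa and Nkx2-5 were at 0 in both Skp1aKO libraries. The 4 skeletal muscle genes summed to 31.9 and 38.2 CPM in Skp1aKO, against 5.14 and 4.73 CPM in wt, nearly all of it Ttn. Of the 6 red blood cell markers 5 were lower in Skp1aKO, as were 2 of 8 neural progenitor, 2 of 5 mesenchyme, 3 of 4 endothelial, 2 of 4 macrophage and platelet, 2 of 2 trophoblast and 1 of 5 surface epithelium markers tested. Their part in the channel values was not tested.

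Skp1acont, set against the same wt libraries, had 38 channel genes higher and 1 lower of 109, where 36.4% of all genes were called, 19.3% as higher and 17.1% as lower. Of the 61 genes that did not pass the filter in the wt libraries alone 25 were higher, 41% beside 36.1% of all such genes. Of the 48 also tested in the wt libraries 13 were higher and 1 lower, 27.1% and 2.08%, beside 11.9% and 24.7% of all such genes. The 2 comparisons share the wt libraries, so values are given side by side. Kcnk1 had 2.66 and 0.302 CPM in Skp1acont, against 4.77 and 6.22 CPM in wt (log2 fold change -1.76 ± 0.62, edgeR adjusted p = 0.0486). Cacna1g differed by 1.88 ± 0.49 (edgeR adjusted p = 0.0205) and Kcnq3 by 2.32 ± 0.54 (edgeR adjusted p = 0.0148), while Cacna1a, at 9.69 and 18.4 CPM, did not pass (1.01 ± 0.39, edgeR adjusted p = 0.0654). Scn8a, at 18.8 and 28.7 CPM in Skp1acont against 11.0 and 11.1 CPM in wt, passed (1.09 ± 0.29, edgeR adjusted p = 0.022). With the chemoreceptor rate subtracted 5 were higher and 1 lower of 49, namely Cacng4, Kcnq3, Kcnq5, Kcnk6 and Scn8a, and Scn2a. After subtraction Scn2a had no count left in Skp1acont and could be tested only through wt libraries, so the filter fixed its direction. Without Skp1acont replicate 2 the counts were 22 higher and 1 lower of 91, without Skp1acont replicate 1 they were 76 and 3 of 105, and without either wt library none was called.

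Skp1aKO set against Skp1acont gave no channel gene past the test in edgeR or in DESeq2, and 0% of all 18837 genes were called by edgeR. At an unadjusted p under 0.05 edgeR had 3 of the 109 channel genes and DESeq2 had 1. Kcne3 had 2.78 and 2.87 CPM in Skp1aKO, against 16.5 and 0.302 CPM in Skp1acont, and Cacnb3 had 10.9 and 10.8 CPM in Skp1aKO, against 21.1 and 2.41 CPM in Skp1acont. For both genes the Skp1aKO values lay between the Skp1acont ones. The direction of the calls turned with the library left out: without Skp1acont replicate 2 there were 12 higher and 3 lower (Kcne3, Kcna5 and Cacnb3), and without Skp1acont replicate 1 there were 2 higher and 22 lower. With 1 Skp1acont library left, its spread was taken to equal that of the remaining groups.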

How the data were processed

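Poly(A) RNA was taken from mouse embryos, with an RNeasy kit and NEBNext magnetic isolation per the labels' protocols. The authors deposited raw counts, 1 whole number per gene and library, with no scaling. The submitters' processing notes name Trim Galore 0.6.7 for trimming and GRCm38 as build. Aligner, counter and strandedness: not given in the sources used here, which leaves overlapping and antisense genes uncertain. Libraries were grouped by title, and 1 labelled Skp1acont PI library was not analysed here. Total counts of 2320599 to 11607085 set floors of 0.258 to 1.29 CPM per library for a count of 0 (3 counts), for counting error only.

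edgeR 4.0.16 in R 4.3.3 was used with filterByExpr by group, TMM scaling and the robust quasi-likelihood F test, two-sided, adjusted over all genes tested by the Benjamini-Hochberg method. The wt comparisons used a fit of the 6 wt libraries (13126 genes, biological coefficient of variation 19.6%) and the others a fit of all 11 (18837 genes, 35.3%). The standard error is the log2 fold change over the square root of F. The fits were tested on simulated data. Alternatives were DESeq2 size factors, library totals, the DESeq2 1.42.0 Wald test, other low-count filters, the lot as a replicate block, other sets of libraries, the chemoreceptor rate subtracted and each library left out in turn. Subtraction together with leaving out Skp1acont replicate 2 was chosen after seeing the data.

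Same-lot deviations correlated with r of 0.297 to 0.343 in the 3 pairs of wt groups, and with -0.01 to 0.18 in pairs with a Skp1a label. In each wt group the lot 2 library was also the deeper, so this check cannot tell pairing by lot from a shared effect of depth. The values reported come from fits without the lot, and the fit with it is an alternative. The genes named are the called ones with the largest fold changes (up to 12 each way), the highest by level and a fixed set of well-known channels, some of which are not reported here. A few others, such as Kcne3 in Skp1acont, were chosen after their values were seen. The channel genes and lists were chosen with earlier results of these data known. Exon lengths came from GENCODE M21, and promoters from RefSeq.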

Additional observations from a re-analysis of the deposited data

How the results depend on the processing

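Counts of channel genes called changed with the tool, the scaling and the libraries used. For wt 9.5 dpc against wt 9.0 dpc, 14 were called, and the DESeq2 Wald test gave 7, the fit of all libraries 2 and leaving out 1 library 8 to 12. For wt PI against wt at 9.5 dpc the count was 5, with 1 by DESeq2, 0 in the fit of all libraries and 2 to 3 with a library left out. For wt PI against wt 9.0 dpc it was 6, with 11 under library totals, 1 by DESeq2, 12 with the replicate block, 0 in the fit of all libraries and 1 to 3 with a library left out. For Skp1aKO against wt it was 33, with 62 under library totals, 70 without Skp1acont replicate 2, 5 after subtraction, 18 after both, and 0 to 70 over libraries left out. For Skp1acont against wt it was 39, with 65 under library totals, 6 after subtraction with or without Skp1acont replicate 2, and 0 to 79 over libraries left out. Skp1aKO against Skp1acont gave 0, 4 after subtraction without Skp1acont replicate 2, and 0 to 24 over libraries left out. Fewer genes are tested after subtraction and with fewer libraries, and for the other changes the cause was not tested. The replicate block moved no other count by more than 1.5 times. Signs were checked for the called genes with the largest fold changes, up to 12 each way in a comparison, and none of these changed sign. At 2 libraries a group and a few reads per channel gene, values of genes under about 1 CPM rest on few reads and are imprecise.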
